A study of Mus musculus with 36 samples.

Results

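The neutrophil granule genes described here are 10 of the 23067 genes with a symbol in the RNA count table of 30048 RefSeq transcripts. They comprise 3 early granule genes (Mpo, Elane and Prtn3) and 7 late granule genes (Ltf, Ngp, Camp, Lcn2, Mmp8, S100a8 and S100a9). The members were chosen by name, with each gene taken as the RefSeq transcript of highest mean count. Each of the 10 genes had 1 row in the table, and all 10 passed the filter on low counts in every comparison.

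Articular cartilage of the tibial plateaus and femoral condyles was taken from knees of male C57BL/6J mice operated on at 12 weeks of age. The right knee was operated on to destabilize its medial meniscus (DMM), which induces osteoarthritis as after an injury, and the left knee of the same animals was left unoperated as the control. Tissue was collected 4 or 12 weeks after surgery and 3 knees were pooled per library, with 3 control and 3 DMM libraries at each time. Controls were therefore contralateral limbs of operated mice, with neither sham-operated nor naive animals among the groups used here. The RNA libraries held 27706547 to 62737656 counts. The labelled tissue was checked against chondrocyte markers, and the cartilage genes Prg4, Comp, Col2a1 and Acan had 12-library means of 10117, 2065, 981 and 493 CPM (counts scaled to a library total of 1000000), whereas Matn1 and Matn3 averaged only 0.789 and 3.58 CPM. Genes of osteoblasts and osteocytes were abundant as well, with Spp1, Col1a1 and Ibsp at 6020, 3728 and 3264 CPM. The summed level of 8 such genes ran from 9658 to 18714 CPM, beside 7350 to 23865 CPM for 12 chondrocyte genes. The part of bone in the tissue was not tested. Skeletal muscle genes differed most between libraries, with a summed level of 10 genes from 81.3 to 19675 CPM.

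Neutrophils make their granules in order while they mature in the bone marrow. Promyelocytes transcribe the genes of the early, azurophil granules, which hold myeloperoxidase and serine proteases, and myelocytes and metamyelocytes then transcribe the genes of the late, specific and gelatinase granules. Transcripts of the early genes are largely gone from circulating neutrophils, while S100a8 and S100a9 transcripts are abundant in them. Early transcripts therefore mark immature cells of the marrow, and late transcripts mark later stages. In bulk tissue, fewer cells of a type and less RNA per cell cannot be told apart.

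Several members are neighbours in the genome (GRCm38.p6). Prtn3 (chr10:79879667-79883174) and Elane (chr10:79886312-79888216) are neighbours on the plus strand with 3138 bp between them, and S100a8 (chr3:90669071-90670034) and S100a9 (chr3:90692630-90695721) are 22596 bp apart on opposite strands. Camp (chr9:109847377-109849456), Ngp (chr9:110419808-110423012) and Ltf (chr9:111019292-111042766) follow each other on chromosome 9, with gaps of 570352 bp and 596280 bp. Mmp8 (chr9:7558429-7568486) lies far from them on the same chromosome, Lcn2 (chr2:32384637-32387739) on chromosome 2 and Mpo (chr11:87793784-87804412) on chromosome 11.

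The 250 bases before the start, from RefSeq's GRCm38.p6 sequence, are shown for all 3 early genes and for 3 late genes. The 3 late genes shown all hold the letters TTGCNNAA, described below. Of the late genes not shown, Lcn2 and S100a9 hold these letters and Camp and S100a8 do not. The windows are chr11:87793534-87793783 (plus strand) for Mpo, chr10:79886062-79886311 (plus strand) for Elane, chr10:79879417-79879666 (plus strand) for Prtn3, chr9:111019042-111019291 (plus strand) for Ltf, chr9:110419558-110419807 (plus strand) for Ngp and chr9:7558179-7558428 (plus strand) for Mmp8. Capitals mark GAGGAAGT, an ETS-type sequence of the kind that PU.1 binds, on either strand (ACTTCCTC on the other), and TTGCNNAA, a sequence of the C/EBP type, on either strand (TTNNGCAA on the other). The start lies directly after the last base.
Mpo: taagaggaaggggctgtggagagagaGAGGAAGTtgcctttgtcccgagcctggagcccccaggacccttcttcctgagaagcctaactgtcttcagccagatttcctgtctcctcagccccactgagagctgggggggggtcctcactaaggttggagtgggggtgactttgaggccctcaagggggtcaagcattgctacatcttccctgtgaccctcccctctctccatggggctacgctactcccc
Elane: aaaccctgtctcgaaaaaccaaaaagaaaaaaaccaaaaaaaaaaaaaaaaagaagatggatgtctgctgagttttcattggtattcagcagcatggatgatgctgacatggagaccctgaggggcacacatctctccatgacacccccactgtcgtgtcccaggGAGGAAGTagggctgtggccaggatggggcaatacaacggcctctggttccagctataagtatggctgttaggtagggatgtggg
Prtn3: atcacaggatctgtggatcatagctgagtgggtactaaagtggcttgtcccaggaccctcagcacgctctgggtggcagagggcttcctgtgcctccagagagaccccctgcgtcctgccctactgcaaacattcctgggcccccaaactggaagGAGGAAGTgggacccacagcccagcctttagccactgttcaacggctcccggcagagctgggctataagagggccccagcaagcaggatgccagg
Ltf: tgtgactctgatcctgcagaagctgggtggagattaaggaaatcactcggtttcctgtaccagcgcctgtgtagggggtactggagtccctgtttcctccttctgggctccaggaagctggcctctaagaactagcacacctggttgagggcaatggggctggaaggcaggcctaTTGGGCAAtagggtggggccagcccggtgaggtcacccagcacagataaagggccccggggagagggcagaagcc
Ngp: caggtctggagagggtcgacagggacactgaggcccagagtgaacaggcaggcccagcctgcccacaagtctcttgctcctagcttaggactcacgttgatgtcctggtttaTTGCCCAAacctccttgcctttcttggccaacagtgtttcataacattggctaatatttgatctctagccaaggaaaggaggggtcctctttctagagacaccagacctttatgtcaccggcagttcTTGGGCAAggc
Mmp8: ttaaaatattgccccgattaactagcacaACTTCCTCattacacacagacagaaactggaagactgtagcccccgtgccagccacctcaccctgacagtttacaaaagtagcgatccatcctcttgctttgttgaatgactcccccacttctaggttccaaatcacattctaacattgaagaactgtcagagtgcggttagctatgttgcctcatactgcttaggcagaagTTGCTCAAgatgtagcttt

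GAGGAAGT was present in the promoters of all 3 early genes and of 2 late genes, Mmp8 and S100a8, against 2.44% of the 27025 promoters in the RefSeq table. It began 224 bases before the start of Mpo, 85 before that of Elane and 95 before that of Prtn3, so the neighbouring proteases held it at nearly the same distance. TTGCNNAA was absent from the 3 early promoters and present in those of 5 late genes (Ltf, Ngp, Lcn2, Mmp8 and S100a9), against 9.55% of all promoters. Ngp held it at 2 places. The exact letters TATAAA, searched on the gene's own strand only, were present in S100a8 alone, 30 bases before its start, against 8.12% of promoters. Variants of these letters were not searched, and the Elane and Prtn3 sequences shown hold TATAAG. Camp held none of the 3 sequences. The motif letters were chosen after the promoter sequences had been seen. The counts are therefore no test of early against late genes, or of members against all promoters. The 2 strands were searched for each motif except TATAAA, and no match overlapped another. A match is a description of letters and not of binding.

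Several of the granule transcripts were among the most abundant in the cartilage libraries. Together the 10 members took 0.826% to 4.53% of all counts in a library, the 3 early genes 0.121% to 0.676% and the 7 late genes 0.705% to 3.86%. By mean count over the 12 libraries, Ngp ranked 9th, S100a8 13th, S100a9 14th, Ltf 20th and Mpo 27th among the genes with a symbol. Camp ranked 32nd, Lcn2 58th, Elane 72nd, Mmp8 115th and Prtn3 534th. Per transcript length, S100a8 ranked 1st with 11221 CPM per kb, S100a9 3rd with 7654 and Ngp 7th with 4969 CPM per kb. Camp followed with 2913 CPM per kb, then Ltf with 1227, Lcn2 with 1146, Mpo with 911 and Elane with 853 CPM per kb. Mmp8 and Prtn3 were the lowest of the members per length, at 214 and 174 CPM per kb. Levels per length varied widely over libraries, as Ltf alone ranged from 456 to 2486 CPM per kb. Within libraries Ltf stood above Elane in every case. It also stood above Mpo in all libraries but 12-week control replicate 2 (1292 against 1309 CPM per kb). The order of Ltf and Lcn2, and that of Mpo and Elane, changed between libraries.

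Early genes came first in the order of maturation, and Mpo, which encodes the heme peroxidase of azurophil granules, was the most abundant of them. In the control limbs Mpo had 895, 1438 and 2246 CPM at 4 weeks and 4774, 3333 and 3948 CPM at 12 weeks. In the DMM limbs it had 1119, 1325 and 929 CPM at 4 weeks and 1844, 2089 and 3890 CPM at 12 weeks. Every 12-week control library thus lay above every 4-week control library, and every 12-week DMM library above every 4-week DMM library, while the limbs overlapped at both times.

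Elane encodes neutrophil elastase, a serine protease of the same granules. Its control libraries had 377, 489 and 774 CPM at 4 weeks and 1474, 1096 and 1163 CPM at 12 weeks, and its DMM libraries had 376, 611 and 577 CPM and then 568, 654 and 1261 CPM. Prtn3, which encodes proteinase 3, had 83.1, 110 and 173 CPM in 4-week control libraries and 336, 217 and 240 CPM in 12-week control libraries. In the DMM limbs Prtn3 had 80.7, 133 and 133 CPM at 4 weeks and 127, 134 and 258 CPM at 12 weeks. For both proteases the 2 control groups did not overlap and the 2 DMM groups did.

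Among the genes of the specific granules, Ltf encodes the iron-binding lactoferrin. Ltf had 1250, 2182 and 3713 CPM in 4-week control libraries, 1884, 2466 and 1909 CPM in 4-week DMM libraries, 6817, 3542 and 5692 CPM in 12-week control libraries and 3331, 2989 and 4610 CPM in 12-week DMM libraries. The 2 DMM groups of Ltf did not overlap, whereas its highest 4-week control library exceeded its lowest 12-week control library. Ngp encodes neutrophilic granule protein, and its levels were 2448, 3703 and 6141 CPM in 4-week control and 3118, 4738 and 4327 CPM in 4-week DMM libraries. At 12 weeks Ngp reached 11036, 6209 and 8792 CPM in control and 5162, 5022 and 8539 CPM in DMM libraries. All 12-week libraries of Ngp lay above the 4-week libraries of the same limb. Camp, which encodes the precursor of the cathelicidin peptide, had 719, 1176 and 1898 CPM in control and 975, 1484 and 1413 CPM in DMM libraries at 4 weeks. At 12 weeks Camp had 3123, 1913 and 2503 CPM in control and 1470, 1566 and 2697 CPM in DMM libraries, so that its control groups were separate in time, by a narrow margin, and its DMM groups were not.

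Lcn2 encodes lipocalin 2, which binds bacterial siderophores and is also made by other cells, chondrocytes included, in inflammation. Its CPM were 299.9, 627 and 1156 in control and 561, 927 and 910.0 in DMM libraries at 4 weeks, and 1752, 1026 and 1470 in control and 927, 815 and 1262 in DMM libraries at 12 weeks. Mmp8 encodes neutrophil collagenase, with 225, 368 and 695 CPM in control and 325, 521 and 477 CPM in DMM libraries at 4 weeks. At 12 weeks Mmp8 had 720, 511 and 951 CPM in control and 547, 400.0 and 545 CPM in DMM libraries. For both genes the groups overlapped in every comparison of limb or week.

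S100a8 and S100a9 encode the 2 subunits of calprotectin, a calcium-binding protein of the neutrophil cytosol rather than of a granule. S100a8 had 1567, 2686 and 5136 CPM in control and 2734, 4269 and 4052 CPM in DMM libraries at 4 weeks, then 7514, 4366 and 6607 CPM in control and 3772, 4116 and 5965 CPM in DMM libraries at 12 weeks. S100a9 had 1396, 2715 and 4878 CPM in control and 2447, 3901 and 3966 CPM in DMM libraries at 4 weeks, then 6593, 3968 and 5839 CPM in control and 3398, 3471 and 5279 CPM in DMM libraries at 12 weeks. The spread was widest in the 4-week control group, where the highest library of S100a8 and of S100a9 lay above the lowest 12-week library of either limb.

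**Figure D1:**
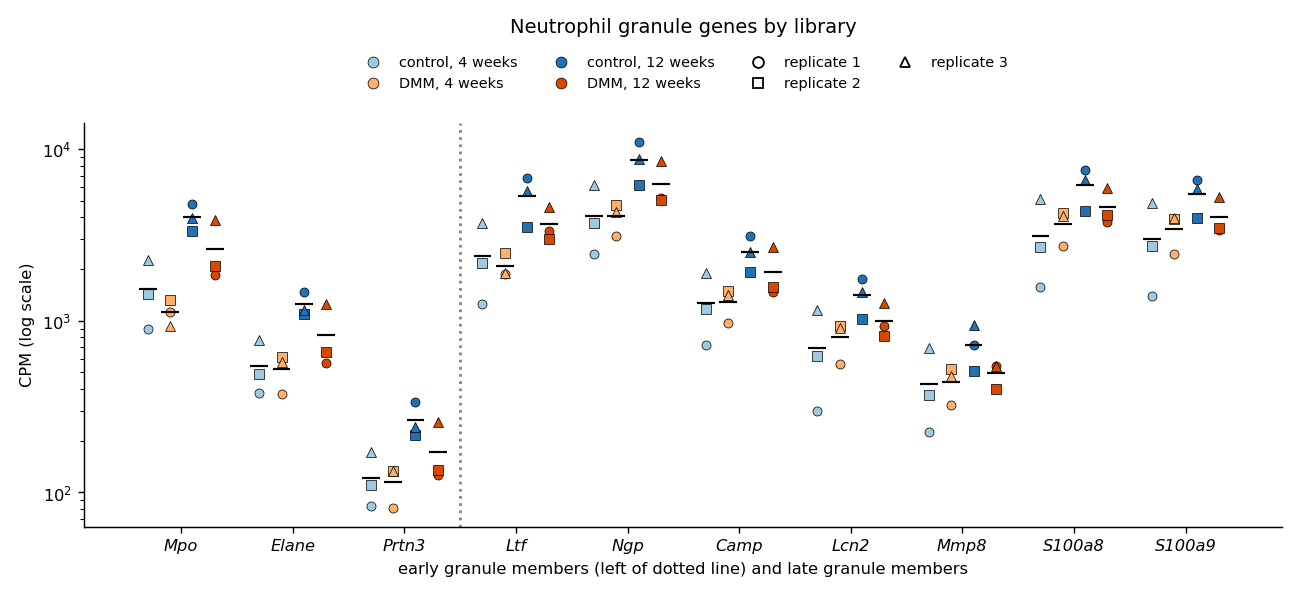
Level of each member in CPM (log axis) in each of the 12 libraries, with colours for limb and week, marker shapes for the replicate number and a bar for the group mean. The 12-week control libraries (dark blue) hold the highest level of every member, 4774 CPM for Mpo and 11036 CPM for Ngp, and the 4-week control libraries (light blue) are spread widely.

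The libraries of a group kept nearly the same order for all members. At 4 weeks, replicate 3 of the control group was the highest and replicate 1 the lowest for all 10 members, and at 12 weeks replicate 2 of the control group was the lowest for all 10. In the DMM group at 4 weeks, replicate 1 was the lowest for every member except Mpo, for which replicate 3 was lowest. In the DMM group at 12 weeks, replicate 3 was the highest for every member except Mmp8, for which replicate 1 was higher by a small margin. The same 4-week control replicate 3 also had the highest summed level of erythroid genes (21970 CPM over 13 genes, 7496 to 16390 CPM in the other 11 libraries) and of B lymphocyte genes (435 CPM over 12 genes, 181 to 362 CPM in the others). The erythroid sum holds both Hba-a1 and Hba-a2, which had the same mean of 2535 CPM and are not separate measurements. The 4-week control replicate 1, lowest for all 10 members, had the highest summed level of skeletal muscle genes, and the 12-week control replicate 1, highest for 9 members, had the lowest. Other libraries went the other way. The 12-week control replicate 3 had the next highest muscle level (14182 CPM) and also the next highest share of counts from the members (3.88%). The part of other cell types in the members' spread was not tested.

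Some pairs of members kept a nearly fixed ratio across all 12 libraries. The log2 ratio of Ngp to Camp had an SD of 0.0703, that of Elane to Prtn3 an SD of 0.0715 and that of S100a8 to S100a9 an SD of 0.0725, whereas the members' own log2 levels had SDs of 0.56 to 0.85. In CPM, Elane was 4.35 to 5.06 times Prtn3, S100a8 was 0.989 to 1.19 times S100a9 and Ngp was 3.06 to 3.53 times Camp. Over all 21 pairs of late members the median SD was 0.21, over the 3 pairs of early members it was 0.31 and over the 21 pairs of an early and a late member it was 0.30, so pairs of early members were not closer than pairs across the stages. Mpo moved most on its own. The log2 ratio of Mpo to Mmp8 had an SD of 0.57, the widest of all 45 pairs, and the Mpo to Elane ratio in CPM was 2.98, 2.17 and 1.61 in 4-week DMM libraries against 3.24, 3.04 and 3.40 in 12-week control libraries.

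The first question was whether cartilage of the operated limb differed from that of the control limb. At 4 weeks none of the 10 members passed the test (edgeR's quasi-likelihood test, Benjamini-Hochberg adjusted p under 0.05 over all 21140 transcripts tested), in a comparison that called 16 transcripts (0.0757%). The estimates were small and of both signs. DMM minus control, Mpo was -0.45 ± 0.38 (log2 fold change ± SE, 95% interval -1.32 to 0.42, adjusted p = 0.564) and S100a8 was 0.22 ± 0.46 (-0.84 to 1.28, adjusted p = 0.829), with the other 8 members in between. The 3 early genes had negative estimates and 5 of the 7 late genes positive ones, with medians of -0.09 and 0.02 against -0.03 over all transcripts. The CPM of the limbs overlapped for all 10 members, where 21.0% of transcripts had limbs that did not overlap. Without control replicate 3 the estimate of S100a8 was 0.78 and without control replicate 1 it was -0.09, with no member called in either case.

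At 12 weeks all 10 members had negative estimates and none passed the test, in a comparison of 21010 transcripts with 1 called (0.00476%). The early genes lay at -0.62 ± 0.31 for Mpo (95% interval -1.33 to 0.09, adjusted p = 0.345), -0.59 ± 0.31 for Elane (-1.30 to 0.12, adjusted p = 0.365) and -0.61 ± 0.30 for Prtn3 (-1.30 to 0.08, adjusted p = 0.341), or 0.650, 0.666 and 0.656 of the control level. The late genes ranged from -0.39 ± 0.29 for Camp (-1.07 to 0.28, adjusted p = 0.504) to -0.55 ± 0.29 for Ltf (-1.22 to 0.12, adjusted p = 0.369). The member with the lowest p was Mmp8 (-0.54 ± 0.26, unadjusted p = 0.0691, adjusted p = 0.331). The median over the 10 members was -0.52 against 0.01 over all transcripts, and the limbs overlapped for all 10 members, where 18.7% of transcripts did not overlap. DMM replicate 3 was higher than 1 or more control libraries for all 10 members, and without it the estimates ran from -1.02 to -0.60 with no member called. All the intervals hold 0, and they also hold a fall to less than 0.5 of the control level.

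The difference between the limbs was then compared between weeks. The interaction of limb and week was negative for all 10 members, from -0.18 ± 0.51 for Mpo to -0.70 ± 0.58 for Lcn2, with the lowest adjusted p at 0.565. No member passed, and none of the 21618 transcripts tested did (0.0%), with 2656 at an unadjusted p under 0.05 and 16 called by DESeq2.

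**Figure D2:**
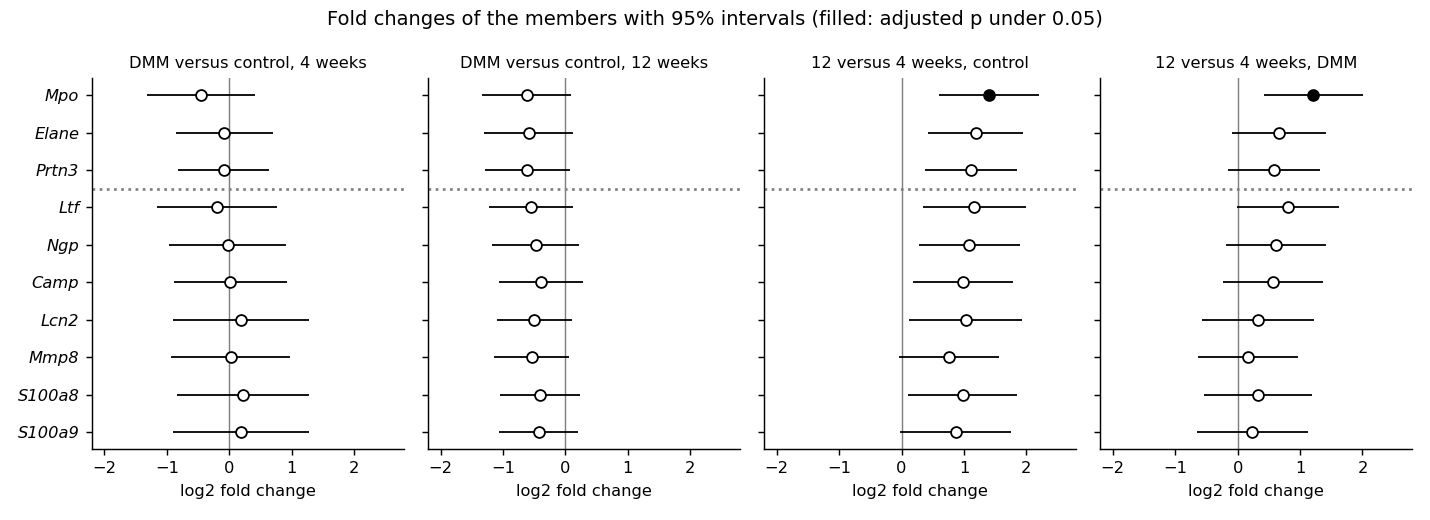
Log2 fold change of each member with its 95% interval in the 4 comparisons of 2 groups, with early members above the dotted line and late members below it. Filled points passed the adjusted threshold, which only Mpo did between weeks, and the open points at 12 weeks all lie below 0 with intervals that reach it.

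The second question was how the members differed between tissue collected at 12 and at 4 weeks, in 1 fit of all 12 libraries. Week, age of the mice and any work done separately for the 2 times cannot be told apart here. In the control limb Mpo was 2.63-fold higher at 12 weeks (1.40 ± 0.37 on the log2 scale, 95% interval 0.60 to 2.20, adjusted p = 0.0471), and it was the only member called, among 2.45% of 21618 transcripts called as higher. Elane at 1.19 ± 0.35 (adjusted p = 0.0639), Prtn3 at 1.11 ± 0.34 (adjusted p = 0.0725) and Ltf at 1.17 ± 0.38 (adjusted p = 0.0844) came next. Ngp had 1.08 ± 0.37 (adjusted p = 0.0977), Lcn2 1.03 ± 0.42 (adjusted p = 0.149) and Camp 0.99 ± 0.37 (adjusted p = 0.121). The lowest estimates were those of S100a8 at 0.98 ± 0.40, S100a9 at 0.87 ± 0.41 and Mmp8 at 0.76 ± 0.37, with adjusted p of 0.155, 0.207 and 0.223. The median over the 10 members was 1.06, against -0.0029 over all transcripts. For 5 members (Mpo, Elane, Prtn3, Ngp and Camp) every 12-week control library lay above every 4-week one, as in 16.3% of transcripts.

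The call of Mpo in the control limb depended on the fit. It was kept with DESeq2 (adjusted p = 0.00266), which also called Elane, Prtn3, Ltf and Ngp, and it was lost with median-of-ratios factors (adjusted p = 0.0553), without the filter on low counts (0.0555), with 1 transcript per gene (0.0549) and in the 6 control libraries alone (0.144). Its log2 fold change lay between 1.36 and 1.37 in all 5 of those alternatives. Without 4-week control replicate 3 all 10 members were called, with log2 estimates of 1.27 to 1.76, and without 12-week DMM replicate 3 the 3 early genes were called. These 2 fits called 2234 of 21862 and 563 of 21853 transcripts as higher, and DESeq2 called 1377 of 26133. The main fit called 529 of 21618 as higher, and the fit of the 6 control libraries alone called 0 transcripts. Leaving out any of the other 10 libraries left no member called, with Mpo at 1.10 to 1.51 and adjusted p of 0.0581 to 0.19.

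In the DMM limb Mpo was again the only member called, 2.32-fold higher at 12 weeks (1.21 ± 0.37, 95% interval 0.42 to 2.01, adjusted p = 0.0326), among 13.6% of transcripts called as higher. Ltf followed at 0.80 ± 0.38 (adjusted p = 0.141), then Elane at 0.67 ± 0.35 (adjusted p = 0.181), Ngp at 0.62 ± 0.37 (adjusted p = 0.241), Prtn3 at 0.58 ± 0.34 (adjusted p = 0.231) and Camp at 0.57 ± 0.37 (adjusted p = 0.281). S100a8 and Lcn2 each had 0.33 ± 0.40 and 0.33 ± 0.41, S100a9 had 0.24 ± 0.41 and Mmp8 0.17 ± 0.37, with adjusted p of 0.579 to 0.757. The median was 0.57 against 0.02 over all transcripts, and for 3 members (Mpo, Ltf and Ngp) every 12-week DMM library lay above every 4-week one, as in 23.3% of transcripts. The call was kept with DESeq2 (adjusted p = 0.00502) and in the 6 DMM libraries alone (0.0229), where Ltf was called as well (0.0448). It was lost on leaving out any 1 of the 3 DMM libraries at 4 weeks, replicate 2 or 3 of DMM at 12 weeks or replicate 1 or 3 of control at 12 weeks, with adjusted p of 0.05 to 0.153 and estimates of 0.81 to 1.32. With DESeq2 and in the 6 DMM libraries alone, 3427 of 26133 and 2534 of 20951 transcripts were called as higher in the DMM limb. The control and DMM contrasts of the main analysis come from 1 fit and share its estimate of the spread.

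The early and late genes were then set against each other within each library, as the mean log2 CPM of the 3 early genes minus that of the 7 late genes. This difference describes the balance of the chosen genes and was not tested. No share over all features was computed for such a difference. It was -1.49, -1.80 and -1.97 in 4-week control libraries, -2.03, -2.09 and -2.18 in 4-week DMM libraries, -1.56, -1.34 and -1.77 in 12-week control libraries and -2.02, -1.78 and -1.48 in 12-week DMM libraries. At 4 weeks every DMM library lay below every control library, by 0.34 on average with a pooled SD of 0.18. The margin was narrow, as the nearest libraries of the limbs had -2.03 and -1.97. At 12 weeks the limbs overlapped, with a difference of -0.20 and a pooled SD of 0.24. The separation at 4 weeks needed Mpo, since the limbs overlapped with Elane and Prtn3 alone as early genes. The edgeR estimates between the limbs at 4 weeks were -0.45 for Mpo, -0.08 for Elane and -0.09 for Prtn3. Of later-stage genes outside the members, some had lower estimates than Mpo and others higher ones, given below. The early minus late difference was higher at 12 than at 4 weeks by 0.34 (pooled SD 0.20) in the DMM limb without overlap. In the control limb it was higher by 0.20 (pooled SD 0.23) with overlap. With Elane and Prtn3 alone as early genes, the 4-week and 12-week DMM groups overlapped as well. Taken as a fold, the mean log2 level per late gene thus stood 2.94 to 4.28 times above that per early gene by group, with the highest value in the 4-week DMM group. Summed over the genes, the late counts were 4.63 to 10.4 times the early counts in a library, and the 3 highest ratios were those of the 4-week DMM libraries.

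Between the limbs at 4 weeks, the early mean differed by -0.15 and the late mean by 0.20, so the shift was made of small differences in opposite directions. With only Ltf, Ngp and Camp as late genes the difference of 12 minus 4 weeks in the DMM limb was 0.12 in place of 0.34. Libraries also differed in how long transcripts stood to short ones. The length measure was the median deviation of transcripts of at least 3000 bases minus that of transcripts of at most 1000 bases. It ran from -0.31 in 4-week DMM replicate 3 to 0.22 in 4-week DMM replicate 1, whose early minus late values were -2.18 and -2.03. In 12-week DMM replicate 3 the length measure was -0.18 and the early minus late value -1.48. The mean difference of the length measure between DMM and control at 4 weeks was -0.15. With early and late genes matched in length (Mpo against Ltf and Mmp8, Elane and Prtn3 against Ngp and Lcn2), a choice made after seeing the data, the DMM libraries at 4 weeks had -1.78, -1.84 and -1.91 and the control libraries -1.27, -1.58 and -1.75, again without overlap. This margin was narrow as well, with -1.78 and -1.75 in the nearest libraries, and the matched genes still held Mpo. The match therefore cannot settle the part of transcript length in the early minus late differences, which was not tested.

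**Figure D3:**
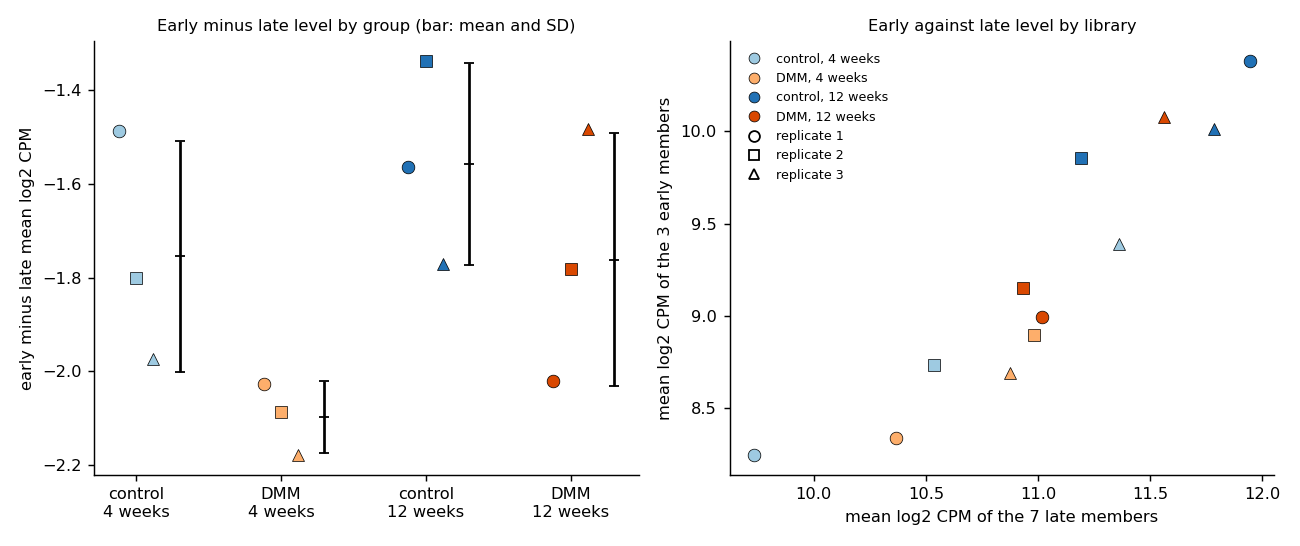
Left, early minus late mean log2 CPM of each library by group, with the group mean and SD as a bar. Right, the early mean against the late mean of each library. The 4-week DMM libraries lie lowest on the left, at -2.03 to -2.18, and on the right both means are higher together from 4-week control replicate 1 (9.73 late and 8.25 early) to 12-week control replicate 1 (11.94 and 10.38).

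The other neutrophil genes were read from lists of precursor, granule, mature cell and transcription factor genes. Among 4 further genes of early neutrophil precursors (Ctsg, Ms4a3, Cst7 and Serpinb1a) none was called in any comparison. Their median differences were 0.19 for DMM against control at 4 weeks, -0.53 at 12 weeks, 0.84 for 12 against 4 weeks in control and 0.11 in DMM limbs. All 4 had positive estimates between the limbs at 4 weeks, 0.17 to 0.28, where the 3 early members had negative ones. Between weeks in the DMM limb the medians of the early and late members were 0.67 and 0.33. Ctsg, which encodes the azurophil protease cathepsin G, averaged 105 ± 48.0 and 119 ± 44.4 CPM in 4-week control and DMM libraries and 174 ± 33.4 and 118 ± 56.0 CPM at 12 weeks (SD, n = 3).

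Among 11 other genes of specific and gelatinase granules, 3 were called as higher at 12 weeks in the DMM limb, Cd177 at 1.26 ± 0.39 (adjusted p = 0.0361), Mmp25 at 1.83 ± 0.42 (adjusted p = 0.0121) and Adam8 at 1.43 ± 0.36 (adjusted p = 0.0178), where 13.6% of all transcripts were. In the control limb none of the 11 was called, but the same 3 genes had 1.41 ± 0.39 (adjusted p = 0.0549), 1.48 ± 0.41 (adjusted p = 0.0545) and 1.15 ± 0.36 (adjusted p = 0.075), and their interactions of limb and week had adjusted p of 0.771 to 0.913. Of 11 genes of mature neutrophils, Padi4, whose product citrullinates histones, was called in both limbs, at 1.57 ± 0.37 in control (adjusted p = 0.0317) and 1.92 ± 0.37 in DMM limbs (adjusted p = 0.00585). Csf3r, the receptor for granulocyte colony-stimulating factor, had nearly the same estimate in both limbs, 1.22 ± 0.36 in DMM (adjusted p = 0.0301, called) and 1.19 ± 0.36 in control limbs (adjusted p = 0.0687, not called). The 5 genes called in the DMM limb have transcripts of 2640 to 3907 bases and Mpo has one of 2546 bases. In the DMM limb, long transcripts stood 0.03 higher against short ones at 12 weeks than at 4 weeks on average (log2 scale). Single DMM libraries ran from -0.31 to 0.22 at 4 weeks and from -0.18 to 0.09 at 12 weeks. The part of transcript length in these calls was not tested. No gene of either list was called between the limbs at 4 or 12 weeks. At 4 weeks Mmp25, Adam8 and Cd177 had limb estimates of -1.09, -0.92 and -0.41, and Padi4 and Csf3r had -0.80 and -0.67 (adjusted p of 0.367 to 0.616). The estimate of Mpo was -0.45. Lyz2 had 0.51, and the medians of the 2 lists were -0.03 and -0.04. A low estimate between the limbs at 4 weeks was thus not particular to early genes.

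Of 7 transcription factors of granulocyte formation, Cebpe, which drives the late granule program, was called in both limbs between weeks, at 1.41 ± 0.32 in control (adjusted p = 0.027) and 1.32 ± 0.32 in DMM limbs (adjusted p = 0.0145). Spi1, which encodes PU.1, had 1.06 ± 0.28 in DMM (adjusted p = 0.0214, called) and 1.04 ± 0.28 in control limbs (adjusted p = 0.0518, not called), with an interaction of 0.02. Cebpd had 1.07 ± 0.21 in DMM (adjusted p = 0.00567, called) and 0.53 ± 0.20 in control limbs (adjusted p = 0.135, not called), with an interaction of 0.55 (adjusted p = 0.426). Cebpa, Gfi1, Runx1 and Myb were called in no comparison. Between weeks, Cebpa had -0.32 in control and -0.39 in DMM limbs, and Gfi1 had -0.41 and 0.39. Runx1 had 0.55 and 0.48, and Myb 0.70 and 0.33. The list thus had 1 gene called as higher in control and 3 in DMM limbs, where 2.45% and 13.6% of all transcripts were. Levels of Cebpe averaged 23.8 and 17.7 CPM in 4-week control and DMM libraries and 63.5 and 44.3 CPM at 12 weeks.

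Genes of other blood cells and of macrophages gave a background for the members' difference between weeks. The medians for 12 against 4 weeks in control and DMM limbs were 0.24 and -0.05 for 13 erythroid genes, 0.17 and -0.37 for 12 B lymphocyte genes and -0.12 and -0.86 for 11 monocyte and macrophage genes, against 1.06 and 0.57 for the members. The erythroid genes Hba-a1 and Hba-a2 had the same estimates (0.10 in control and -0.05 in DMM limbs), so the 13 are not all separate measurements. None of the erythroid, B lymphocyte or monocyte genes was called in the control limb. In the DMM limb 1 erythroid gene was called as higher (Epor), and 1 B lymphocyte gene (Ebf1) and 5 macrophage genes (Adgre1, C1qa, C1qb, C1qc and Mrc1) as lower, where 10.1% of all transcripts were called as lower. Between the limbs at 12 weeks the medians of these 3 lists were -0.38, -0.54 and -0.41, beside -0.52 for the members, with no gene called. The monocyte and macrophage list was mixed, so its median does not stand for monocytes. Between weeks its 5 called genes had -0.39 to -0.13 in control and -1.75 to -1.26 in DMM limbs. Ly6c2 of the same list had 0.88 and 0.21, and Ccr2 had 0.44 and -0.77. The difference between lists was not tested.

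The genes with the profile most like the members over the 12 libraries were named by Pearson's r among 15576 genes. The 5 most like the early mean were Nkg7, Spc24, Cmtm7, Prss57 and Mdm1, with r of 0.985 to 0.987. Prss57 encodes a serine protease of azurophil granules and lies in the same gene family as Elane, with 29.3 and 23.7 CPM on average in 4-week control and DMM libraries and 52.4 and 35.9 CPM at 12 weeks. The 5 most like the late mean were Trem3, Mcemp1, Igsf6, Pilrb1 and Wfdc21, with r of 0.987 to 0.992, and Trem3 averaged 51.4, 55.9, 109 and 77.8 CPM in the same 4 groups. As many as 482 genes had an r over 0.9 with the early mean and 441 with the late mean, and the points share their 4 groups and library depths. By Spearman's rho, 1 of the 5 early genes (Cmtm7) and 2 of the 5 late genes (Mcemp1 and Pilrb1) were again among the first 5.

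DNA methylation was measured in other mice of the same design, by oxidative bisulfite sequencing (oxBS), which reads 5-methylcytosine (5mC) alone. Windows ran from 2000 bp before the start of each gene to its end and used cytosines with at least 10 reads in all 12 oxBS libraries. Mpo had 20 such cytosines, Prtn3 20, Ltf 30, Lcn2 8, Camp 6 and Mmp8 3, with median coverages of 47 to 71.5 reads, and Elane, Ngp, S100a8 and S100a9 had none. The mean 5mC over the 12 libraries was 85.0% for Camp, 75.4% for Ltf, 74.6% for Lcn2, 70.5% for Mpo and 64.5% for Mmp8. These values lie above 88.7% to 97.6% of 15957 gene windows with at least 5 cytosines, whose median was 16.6%. Mmp8, with 3 cytosines, falls short of the minimum of that set. Position was not matched in this ranking, and most cytosines lay 6148 bp or more after the start in Mpo and 2994 bp or more in Ltf. Prtn3 was the lowest of the 6 at 30.7%, still above 68.5% of the gene windows, with all its cytosines between 2084 and 2967 bp after the start.

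At 12 weeks every DMM library had more 5mC than every control library in 3 of the 6 windows, as in 3.97% of 16649 gene windows with at least 3 cytosines. Prtn3 had 25.6%, 27.1% and 25.9% in control and 33.0%, 31.5% and 31.6% in DMM libraries, a difference of 5.87 points with a pooled SD of 0.82. Mpo had 68.3%, 68.5% and 66.9% in control and 72.6%, 70.2% and 71.8% in DMM libraries, a difference of 3.67 points. Mmp8 had 61.9%, 61.4% and 57.5% in control and 66.0%, 65.1% and 69.7% in DMM libraries, a difference of 6.64 points over only 3 cytosines, and the 1 of them within 2000 bp of the start had a difference of the opposite direction (-7.76 points). Ltf, Camp and Lcn2 overlapped, with differences of -1.80, 1.66 and 0.24 points. With at least 20 reads per cytosine the difference of Mpo was -0.14 points and that of Prtn3 was 6.83 points.

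At 4 weeks the limbs overlapped in all 6 windows, where 2.36% of gene windows had every DMM library above every control library. Prtn3 had 21.8%, 35.8% and 32.4% in control and 32.5%, 37.6% and 34.0% in DMM libraries, and Mpo had 62.3%, 74.0% and 70.5% in control and 72.4%, 76.8% and 71.9% in DMM libraries. Control replicate 1 was the lowest for both genes, and without it the differences were 0.60 in place of 4.71 points for Prtn3 and 1.48 in place of 4.80 points for Mpo. The 5-hydroxymethylcytosine level, as bisulfite minus oxBS percentage over cytosines covered in all 24 libraries, ran from -2.48 to 7.44 points for Mpo and from -0.55 to 8.53 points for Prtn3. It was below 0, which no true level can be, in 1 of the 12 pairs of libraries for each gene. The bisulfite file of the 12-week DMM replicate 1 carries a number other than its label, so that its values, 2.18 points for Mpo and 6.46 points for Prtn3, may join different samples.

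**Figure D4:**
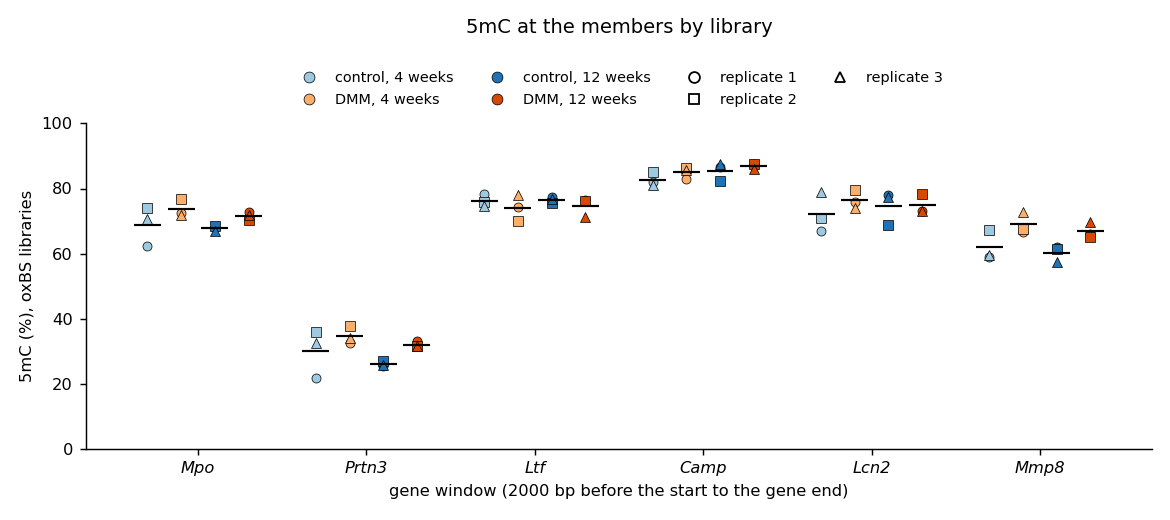
Mean 5mC percentage over the cytosines of each member's window in each of the 12 oxBS libraries, with a bar for the group mean. Prtn3 lies at 21.8% to 37.6% and the other 5 genes at 57.5% or above, and the 12-week DMM libraries of Prtn3, Mpo and Mmp8 lie above the 12-week control libraries.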

How the data were processed

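RNA was sequenced from 12 cartilage libraries and DNA from 24 libraries (bisulfite and oxidative bisulfite) of other mice. The deposited counts per RefSeq transcript were made by the authors with STAR and featureCounts on mm10, after CASAVA 2.17, per the submitters' processing notes. The labels describe poly(A) libraries and the methods a full-length cDNA kit. The deposited percent methylation per cytosine, made by the authors with Bismark, covers cytosines with at least 10 reads. Symbols came from RefSeq for 29472 of 30048 transcripts and from the study's gene table for 17, and 559 had none.

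Counts were tested with edgeR 4.0.16 (R 4.3.3, quasi-likelihood with TMM factors, filterByExpr and Benjamini-Hochberg adjustment over all transcripts). Limbs were compared within each week on 6 libraries, and weeks and the interaction on all 12. Intervals cover 95%, from the fit's SE and degrees of freedom. Levels are CPM, and log2 CPM used a prior count of 2. DESeq2 1.42.0, median-of-ratios factors, no filter, 1 transcript per gene, other sets of libraries, a replicate block and leaving out each library were alternatives. Libraries held 27706547 to 62737656 counts. Scripts were tested on simulated data, and figures were drawn with matplotlib 3.10.9 and pandas 2.3.3. With 3 libraries against 3 an exact permutation test cannot go below p = 0.1. By the study's methods each library pooled 3 cartilage samples, so p-values measure the spread between pools and not between single mice. The members and lists were chosen with earlier results of these data known. Named genes were the 10 members, the 5 genes most like each stage and up to 4 genes per list, called ones first, then by mean CPM. Genes outside that rule, named because a count was small or a list was mixed, were chosen after their values were seen. Ly6g, Olfm4, Cd68 and Ahsp were not analysed here. Methylation windows used the mean percentage over cytosines covered in every library, with no test.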

Additional observations from a re-analysis of the deposited data

How the results depend on the processing

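No member was called between the limbs or by the interaction under any alternative. The number of transcripts called at 4 weeks was 16, against 740 with DESeq2, 0 with 1 transcript per gene, 35 with all 12 libraries in 1 fit and 0 to 118 on leaving out 1 library. At 12 weeks it was 1, against 862 with DESeq2, 56 without the filter and 0 to 860 on leaving out 1 library. With the replicate number as a block, 354 transcripts were called at 4 weeks and 734 at 12 weeks, no member was called, and Ngp at 4 weeks was 0.066 in place of -0.03. The deviations of same-numbered limbs had r of 0.36, -0.33 and 0.08 at 4 weeks and -0.55, 0.26 and -0.25 at 12 weeks. Both limbs came from the same animals, but no label ties a number to the same mice in both limbs, so the block was kept as an alternative.

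For 12 against 4 weeks, the members called in the control limb were 5 with DESeq2, 0 with median-of-ratios factors, without the filter, with 1 transcript per gene or in 6 libraries, and 0 to 10 on leaving out 1 library. In the DMM limb they were 2 in 6 libraries and 0 to 1 on leaving out 1 library. The number of all transcripts called as higher also moved on leaving out 1 library, from 7 to 2234 in control and from 925 to 3577 in DMM limbs. Leaving out 1 library turned the direction at 4 weeks for Elane (-0.28 to 0.26), Prtn3 (-0.29 to 0.25), Ltf (-0.50 to 0.27), Ngp (-0.28 to 0.39), Camp (-0.26 to 0.44), Lcn2 (-0.16 to 0.78), Mmp8 (-0.27 to 0.56), S100a8 (-0.089 to 0.78) and S100a9 (-0.15 to 0.73). It did so for the interaction of Mpo (-0.59 to 0.10), and in the DMM limb between weeks for Mmp8 (-0.005 to 0.29) and S100a9 (-0.001 to 0.35).

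The early minus late difference kept its sign under all alternatives, at -0.45 to -0.21 and -0.34 to -0.08 for DMM minus control at 4 and 12 weeks, and 0.09 to 0.33 and 0.20 to 0.47 for 12 minus 4 weeks in control and DMM limbs, on leaving out 1 library. With only Ltf, Ngp and Camp as late genes the last was 0.12. For 5mC, windows of 2000 bp either side of the start held 1 to 8 cytosines (none for Prtn3, which has no value there) and gave 14.3 points for Mpo at 4 weeks and 17.4 at 12 weeks, -8.85 for Ltf at 12 weeks, and 11.3 and -7.76 for Mmp8 at 4 and 12 weeks. At least 20 reads gave -0.14 for Mpo and 6.83 for Prtn3 at 12 weeks and 4.89 for Camp at 4 weeks. On leaving out 1 library, the ranges at 12 weeks were 3.12 to 4.35 for Mpo, 5.38 to 6.32 for Prtn3, -2.70 to -0.11 for Ltf, 0.05 to 2.67 for Camp, -2.72 to 1.84 for Lcn2 and 5.26 to 7.55 for Mmp8. At 4 weeks they were 1.48 to 7.33 for Mpo, 0.60 to 7.60 for Prtn3, -4.16 to -0.12 for Ltf, 1.46 to 3.51 for Camp, 1.54 to 7.43 for Lcn2 and 5.16 to 9.68 for Mmp8. The cause of these differences was not tested. Each member had 2772 counts or more in every library, and each group had 3 libraries.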
